A study of Mus musculus with 6 samples.

Results

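The Frizzled receptors are the 10 genes Fzd1 to Fzd10, and they were found by symbol among the 53421 genes of the deposited count table through the annotation of GRCm38. All 10 had a row, and 9 had enough reads to be tested among 17214 genes. The libraries came from cerebellar granule cells (GCs) of C57BL/6 mice, which were dissociated, cultured in Neurobasal A with B27 and infected with lentivirus. The labels give postnatal day 8, and the study's methods give pups of P6 to P8 and selection with puromycin. The shYthdf2 group (3 libraries) carried a hairpin against Ythdf2, an RNA-binding protein that reads the m6A mark on mRNA and is known to speed mRNA decay. The shCtrl group (3 libraries) carried a control hairpin and went through the same culture and infection. The names of the shYthdf2 libraries point to a single hairpin, number 3, so an effect of the hairpin itself and an effect of losing YTHDF2 cannot be told apart. Nothing in the labels says whether libraries of a group came from separate cultures (the methods call them biological replicates), so p-values measure the spread between these libraries.

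The titles of the samples name the groups the other way round from the library names. The library names were followed, and every direction given here would invert if the titles were right. Ythdf2 had 500, 401 and 500 normalized counts in shYthdf2 replicates 1, 2 and 4, and 617, 839 and 627 in shCtrl, or 67.3% of shCtrl. The groups did not overlap, but the difference did not pass the threshold over all genes (edgeR quasi-likelihood test, adjusted p = 0.125; two-sided exact permutation p = 0.1, the smallest that 3 against 3 allows). Within replicate numbers 1, 2 and 4 the log2 differences of Ythdf2 were -0.30, -1.06 and -0.33, so it was lowered most within number 2.

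The libraries held 17246821 to 21546595 counts, and 7330 to 10269 of these fell on Frizzled genes. Replicates 1 and 4 of a group differed from each other by a coefficient of variation of 5.20% (shYthdf2) and 5.68% (shCtrl) beyond counting error, whereas replicate 2 differed from them by 23.3% to 30.1%. Replicates 1 and 4 still differed by more than sampling noise (chi-square per degree of freedom 3.38 and 4.75), and they were counted as separate libraries. Results are therefore given over all libraries and, for the Frizzled genes that turn on it and for the named Wnt genes as counts, without replicate 2 or with replicates 1 and 4 summed. GC markers summed to 9455 to 9720 CPM (counts normalised to a common library size) in shYthdf2 and 9858 to 10523 in shCtrl, with 12 of 12 markers detected, but none of the marker lists for other cerebellar cells was at 0 in any library either. RNA was extracted from the whole culture, so fewer cells of a type and less RNA per cell cannot be told apart.

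Frizzled proteins cross the membrane 7 times and bind Wnt proteins through a cysteine-rich domain outside the cell. With the co-receptors LRP5 and LRP6 and the adaptor Dishevelled they stabilize β-catenin, and with ROR, RYK, PTK7 or the planar cell polarity proteins VANGL and CELSR they act on the cytoskeleton. The family falls by sequence into Fzd1, Fzd2 and Fzd7; Fzd5 and Fzd8; Fzd4, Fzd9 and Fzd10; and Fzd3 and Fzd6. Fzd3 is needed for many axon tracts of the brain and spinal cord, and signalling from WNT5A to FZD3, in which VANGL2 and DVL1 also take part, is the route the study examined in GCs.

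The genes differ in build. Fzd1, Fzd2, Fzd7, Fzd8, Fzd9 and Fzd10 each have 1 exon in the annotation of GRCm38, Fzd4 has 2, Fzd5 has 2 of which 1 is coding, and the transcripts of Fzd3 and Fzd6 have 7, of which 6 are coding. Fzd3 is the longest, with 12804 bases of exon, and Fzd9 the shortest, with 2293. Because the knockdown concerns a reader of m6A, the letters GGACT, the most common core of the m6A consensus, were looked for on the sense strand of the transcript with the longest coding sequence. A match shows only that the letters are there, and says nothing of methylation. Of 13731 tested genes with a coding transcript, 92.2% held at least 1 GGACT, and the median was 1.06 per kilobase (quartiles 0.65 and 1.54). Fzd10 (1.85 per kilobase, 6 sites) and Fzd8 (1.67, 10 sites) lay above the upper quartile, Fzd9 (1.31, 3 sites) and Fzd5 (1.16, 8 sites) lay between the median and that quartile, and Fzd4 had 0.89 (6 sites) and Fzd1 0.71 (3 sites). Fzd2 had 0.55 (2 sites), Fzd3 0.55 (7 sites) and Fzd7 0.22 (1 site), all below the lower quartile. Shown here are the site of Fzd7, the only one in its transcript, and 4 of the 5 sites nearest the end of the coding sequence that lie within 400 bases of it in tested genes, the stretch where m6A is known to be dense. Each is 25 bases of GRCm38, written as DNA in the sense direction, with GGACT in capitals.
Fzd7: ggcgccgggaGGACTctcatgcgcc
Fzd2: tcccaggtccGGACTgcaccgtgcc
Fzd5: aggtttttttGGACTgtgtggtcta
Fzd9: agggggctgaGGACTagggtgggga
Fzd10: gtgtgggtctGGACTtccaagaccc

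The site of Fzd7 lies in the 5′ UTR of its single exon (chr1:59482844-59482868, plus strand). That of Fzd2 lies in the 3′ UTR (chr11:102606478-102606502, plus strand), with its A 49 bases after the last coding base. That of Fzd5 lies in the 3′ UTR in exon 2 of 2 (chr1:64734442-64734466, minus strand), 392 bases after it, and that of Fzd9 in the 3′ UTR (chr5:135249115-135249139, minus strand), 127 bases after it. The fifth such site, in the 3′ UTR of Fzd8 with its A 163 bases after the last coding base, is not printed. That of Fzd10 is in the coding sequence (chr5:128602778-128602802, plus strand), 173 bases before its end.

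Over all libraries, 0 of the 9 tested Frizzled genes passed the threshold of an adjusted p under 0.05 (edgeR quasi-likelihood test, Benjamini-Hochberg over all genes), against 104 of 17214 genes, or 0.604%. With the replicate number as a block, 0 of the 9 and 232 of all genes passed. DESeq2 called 1 of the 9, Fzd8, and 7.67% of all genes. At an unadjusted p under 0.05, 1 of the 9 was called, also Fzd8, where 20.1% of all genes were. In 2 of 9 genes, Fzd8 and Fzd9, the groups did not overlap, both lower in shYthdf2, against 26.0% of all genes and 13.4% in that direction. These shares were 11.1% and 22.2% of the 9 genes. With the replicate block, 4 of the 9 (44.4%) had an unadjusted p under 0.05, which were Fzd2, Fzd5 and Fzd7 higher and Fzd8 lower, against 31.6% of all genes. All of these shares rest on 1 to 4 genes. Of the 9, 6 had a positive log2 fold change and 3 a negative one, and the median was 0.14, where the median of all genes was 0.01.

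**Figure D1:**
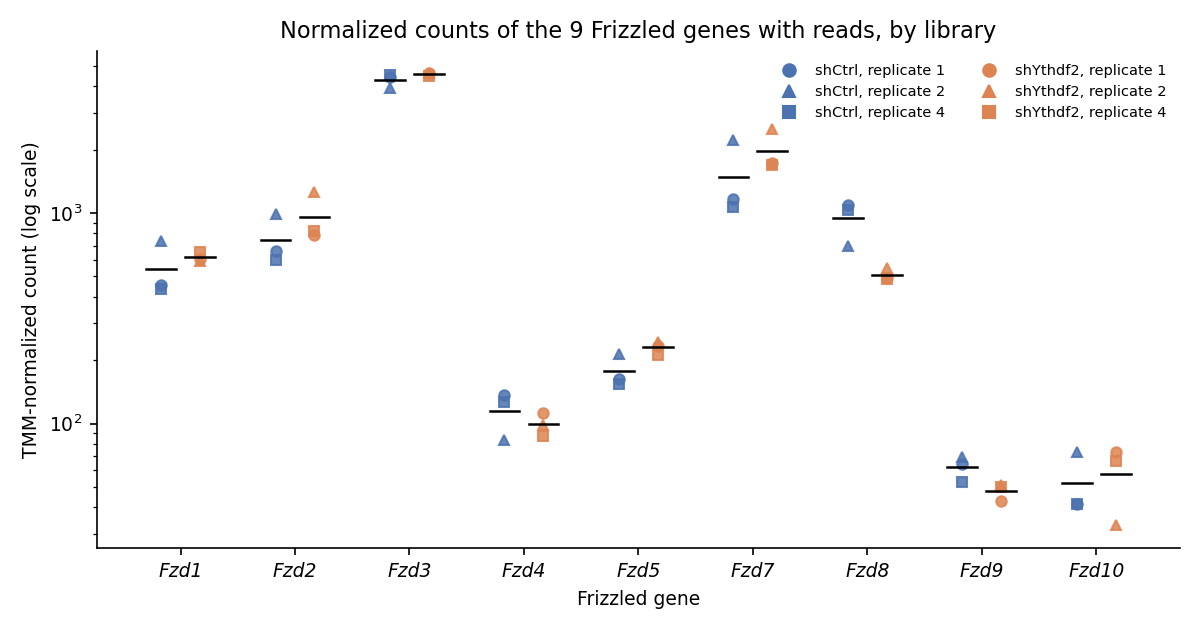
Normalized counts (TMM, log axis) of the 9 Frizzled genes with reads; each point is 1 library, the shape gives its replicate number, the colour its group, and the black line is the group mean. Fzd8 is the gene whose groups stand farthest apart, with 486 to 549 counts in shYthdf2 and 700 to 1097 in shCtrl, and in Fzd7 the replicate 2 libraries (2495 and 2232) lie above the others of both groups.

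Fzd3, the receptor for WNT5A in axons, was the Frizzled gene with the most reads and the steadiest one. It had 4609, 4605 and 4463 normalized counts in shYthdf2 replicates 1, 2 and 4, and 4439, 3921 and 4525 in shCtrl. The groups overlapped, and the means were 4559 ± 83.0 and 4295 ± 327 (SD, n = 3). The log2 fold change was 0.09 with an SE of 0.09 and a 95% interval from -0.14 to 0.31, so these libraries bound a change of Fzd3 mRNA more closely than that of any other member. Its edgeR adjusted p was 0.656, and over 16 alternatives the value stayed between 0.01 and 0.12, past the threshold in 0 of them. A small RNA gene and a processed pseudogene lie inside the introns of Fzd3 and share no exon bases with it.

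Fzd7, a receptor of β-catenin signalling in stem and progenitor cells that is close to Fzd1 and Fzd2 in sequence, had 1737, 2495 and 1686 normalized counts in shYthdf2 and 1162, 2232 and 1068 in shCtrl. The replicate 2 libraries were the highest of each group, and shCtrl replicate 2 was above shYthdf2 replicates 1 and 4. Its log2 fold change was 0.41 (SE 0.30, 95% interval -0.29 to 1.11, edgeR adjusted p = 0.491). Within each replicate number shYthdf2 was higher, by 0.58, 0.16 and 0.66 on the log2 scale.

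Fzd2 followed the same libraries, with 791, 1261 and 817 normalized counts in shYthdf2 and 657, 986 and 596 in shCtrl. Its log2 fold change was 0.36 (SE 0.25, edgeR adjusted p = 0.469), and shYthdf2 was higher within each number, by 0.27, 0.35 and 0.45. Fzd1 had 607, 593 and 655 normalized counts in shYthdf2 and 454, 738 and 436 in shCtrl, and shCtrl replicate 2 was the highest of the 6. For Fzd1 the log2 fold change was 0.19 (SE 0.21, edgeR adjusted p = 0.661), positive within numbers 1 and 4 (0.42 and 0.59) and negative within number 2 (-0.32).

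The calls of these 3 genes turned on replicate 2. With a batch term for that number, Fzd2 (0.36, edgeR adjusted p = 0.0184) and Fzd7 (0.46, adjusted p = 0.0287) passed, in a fit that called 22.1% of all genes. Without shCtrl replicate 2, Fzd1 (0.47, adjusted p = 0.0237) and Fzd7 (0.82, adjusted p = 0.0304) passed, where 18.3% of all genes did. Beside these genes, the summed markers of the oligodendrocyte lineage were 680, 892 and 699 CPM in shYthdf2 replicates 1, 2 and 4 and 264, 878 and 252 in shCtrl. All 8 of these markers were tested, and 8 had a positive fold change, 1 of them with groups that did not overlap. The sums for astrocytes and Bergmann glia were 737, 681 and 727 in shYthdf2, lowest in replicate 2, and 491, 820 and 498 in shCtrl (11 of 11 tested). Of these markers, 9 had a positive and 2 a negative fold change, and the groups did not overlap in 1 higher and 1 lower marker. The lower one was Slc1a2 (log2 fold change -1.44), named because of its values. Unlike the sum, it was lowest in replicate 2 within shCtrl (3024, 1571 and 3072 normalized counts in shCtrl replicates 1, 2 and 4). Those for vascular cells and fibroblasts were 154 to 389 and 121 to 305 (9 of 10 tested). These sums also stood highest in shCtrl replicate 2 within shCtrl, and their part in the values of Fzd1, Fzd2 and Fzd7 was not tested.

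Fzd8, which pairs with Fzd5 by sequence and is a receptor of β-catenin signalling in the developing nervous system, had 493, 549 and 486 normalized counts in shYthdf2 and 1097, 700 and 1031 in shCtrl. The groups did not overlap, with the lower values in shYthdf2, and shCtrl replicate 2 was the nearest to these. The shYthdf2 mean was 509 ± 34.6 and the shCtrl mean 943 ± 212 (SD, n = 3), or 54.0% of shCtrl. The log2 fold change was -0.89 (SE 0.18, 95% interval -1.31 to -0.47), with an unadjusted p of 0.00138 and an adjusted p of 0.0663 in edgeR, which missed the threshold over all genes. Within replicate numbers 1, 2 and 4 the log2 differences were -1.15, -0.35 and -1.08.

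The sign of the Fzd8 difference was the same in 16 of 16 alternatives, from -1.13 to -0.77, but its side of the threshold was not. It passed in 5, which were DESeq2 (adjusted p = 0.000873), the fit without a filter (0.0127, with 1.98% of all genes called), the batch term for replicate 2 (0.0191), the fit without shCtrl replicate 2 (0.00234) and the fit on replicates 1 and 4 alone (1.91e-09). With the replicate number as a block, which called 1.35% of all genes, its edgeR adjusted p was 0.0651, and with replicates 1 and 4 summed it was 0.935, in a fit that called 0 genes.

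Beside Fzd8, the markers of unipolar brush cells, excitatory interneurons of the cerebellum, summed to 27.2, 41.8 and 24.8 CPM in shYthdf2 replicates 1, 2 and 4 and to 104, 69.1 and 99.6 in shCtrl. Of these 3 markers 3 were tested, none was at 0, and 1 had groups that did not overlap. That marker was Eomes (log2 fold change -1.80), which is named because of its values. As in Fzd8, the shYthdf2 libraries were all lower and shCtrl replicate 2 was the nearest to them, and the part of these cells in the values of Fzd8 was not tested.

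**Figure D2:**
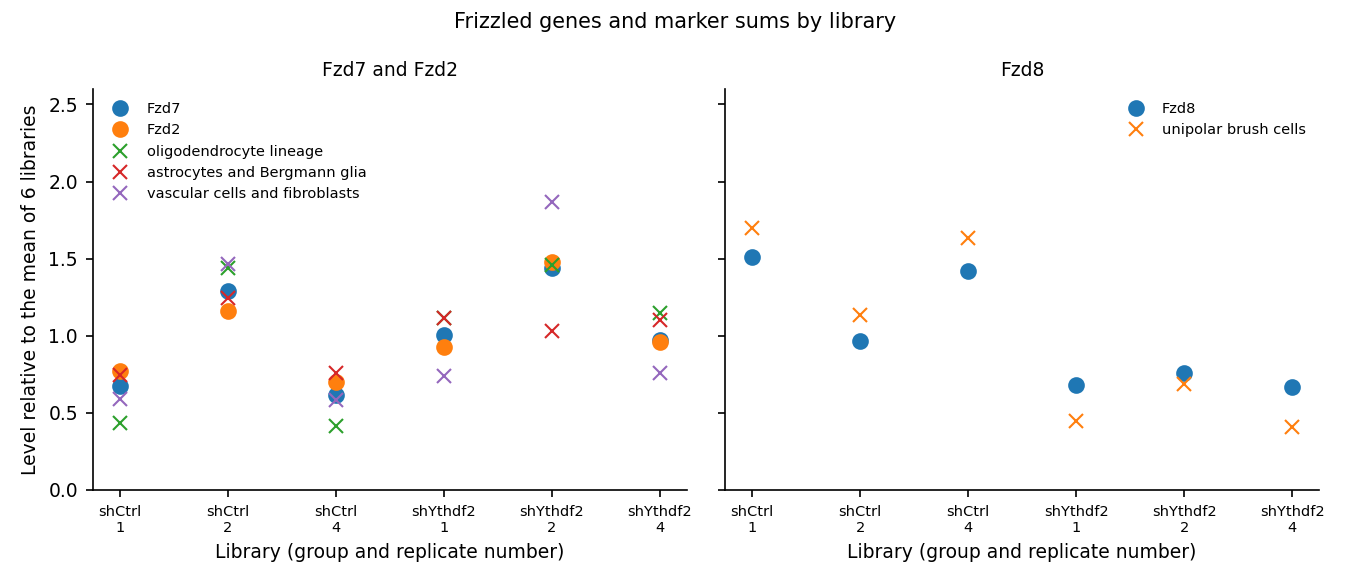
Level of Fzd7, Fzd2 and Fzd8 (circles, normalized CPM per kilobase) and summed marker CPM (crosses), each divided by its mean over the 6 libraries. On the left Fzd7, Fzd2 and the oligodendrocyte and vascular sums stand highest in replicate 2 of each group. The astrocyte and Bergmann glia sum is highest in replicate 2 of shCtrl but lowest in replicate 2 of shYthdf2. On the right Fzd8 and the unipolar brush cell markers are lower in every shYthdf2 library than in every shCtrl library.

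Fzd5, the relative of Fzd8, had 233, 245 and 213 normalized counts in shYthdf2 and 163, 214 and 154 in shCtrl. The groups overlapped by less than 1 count, between shYthdf2 replicate 4 and shCtrl replicate 2. Fzd5 had a log2 fold change of 0.38 (SE 0.18, 95% interval -0.04 to 0.79, edgeR adjusted p = 0.287), and it passed the threshold without shCtrl replicate 2 (0.54, adjusted p = 0.0465). Per kilobase, the ratio of Fzd5 to Fzd8 was 0.41, 0.38 and 0.38 in shYthdf2 and 0.13, 0.26 and 0.13 in shCtrl. The gene Gm38058 lies on the opposite strand over 1233 exon bases of Fzd5 (17.8%) and had 4 to 6 counts, and the counting is not stated to use strand, so reads of the 2 genes there cannot be told apart.

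Fzd4, the receptor of the secreted protein Norrin in retinal vessels, had 113, 98.6 and 86.8 normalized counts in shYthdf2 and 136, 83.1 and 126 in shCtrl. The groups overlapped, and the log2 fold change was -0.21 (SE 0.24, edgeR adjusted p = 0.671). Fzd9, whose human counterpart lies in the region deleted in Williams syndrome, had 42.8, 51.3 and 49.8 normalized counts in shYthdf2 and 64.6, 69.6 and 52.6 in shCtrl. Its groups did not overlap, though shYthdf2 replicate 2 (51.3) and shCtrl replicate 4 (52.6) nearly met, and the log2 fold change of -0.38 (SE 0.23, 95% interval -0.92 to 0.16) had an edgeR adjusted p of 0.406.

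Fzd10 had 73.0, 32.9 and 66.7 normalized counts in shYthdf2 and 41.6, 73.4 and 41.6 in shCtrl. Replicate 2 was the lowest library of shYthdf2 and the highest of shCtrl. The log2 difference was 0.80 and 0.67 within numbers 1 and 4 and -1.15 within number 2, which left a log2 fold change of 0.14 (SE 0.39, edgeR adjusted p = 0.875). Its sign turned when shYthdf2 replicate 1 (-0.07), shCtrl replicate 1 (-0.01) or shCtrl replicate 4 (-0.01) was left out, and with replicates 1 and 4 summed (-0.14), so these data give no direction for Fzd10. On replicates 1 and 4 alone it passed the threshold at 0.74 (edgeR adjusted p = 0.00773).

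Fzd6, the relative of Fzd3 that acts in planar cell polarity, is listed at 0 in all 6 libraries and was not tested. It sits in a run of 6 neighbouring genes on chromosome 15 that are all listed at 0, of which 4 are protein-coding. They include Slc25a32, a carrier of folate into mitochondria that cells use broadly, while the genes that flank the run, Atp6v1c1 and Dcaf13, reached 2169 and 200 counts in a library. These neighbours are named after their values were seen. In all, 4082 of the 21896 protein-coding genes of the table (18.6%) are listed at 0 in every library. The value of Fzd6 is therefore given only as listed, with no limit on its level.

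**Figure D3:**
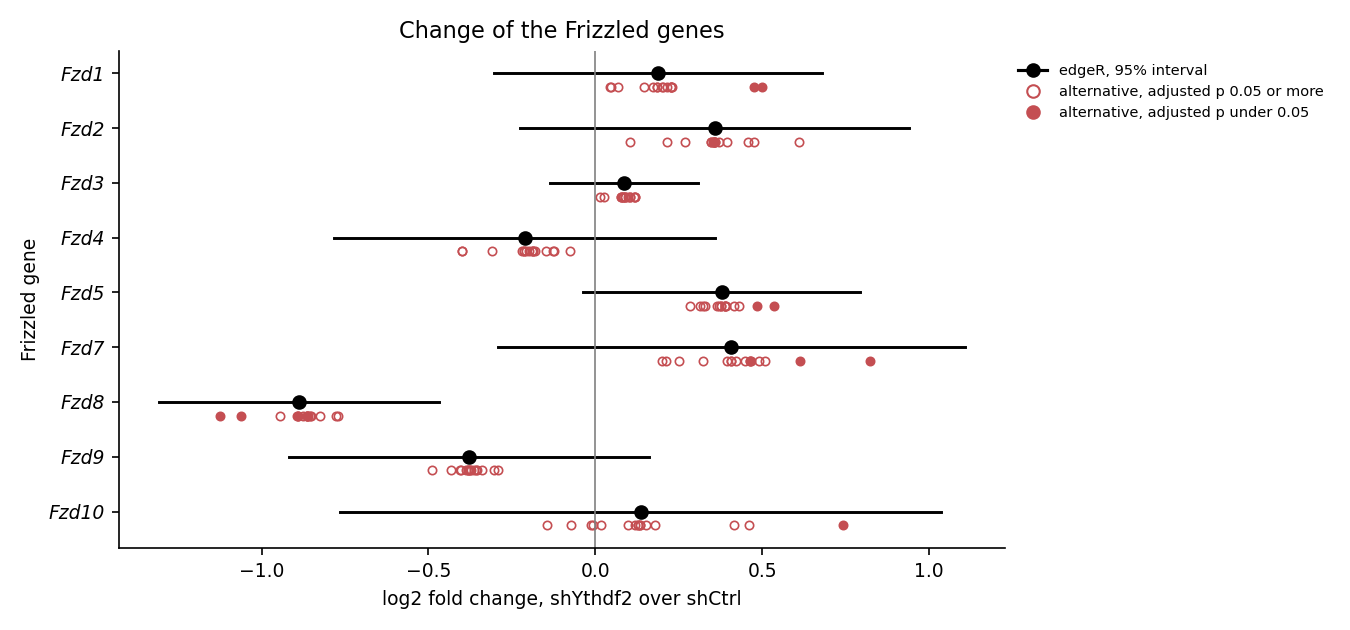
The log2 fold change of each tested Frizzled gene, shYthdf2 over shCtrl, with its 95% interval (black, edgeR over 6 libraries) and its value in each of 16 alternatives (red circles below, filled where the adjusted p is under 0.05). The interval of Fzd8 (-1.31 to -0.47) is the one that does not reach 0, the interval of Fzd3 (-0.14 to 0.31) is the narrowest, and the alternatives of Fzd10 fall on both sides of 0.

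With replicate 2 of both groups left out, 6 of the 9 Frizzled genes passed the adjusted threshold, which were Fzd1 (0.50), Fzd2 (0.35), Fzd5 (0.48), Fzd7 (0.61) and Fzd10 (0.74) higher and Fzd8 (-1.13) lower in shYthdf2. In that fit of 2 libraries against 2, 52.7% of all genes passed, and Fzd3 had a log2 fold change of 0.01 (edgeR adjusted p = 0.782). With replicates 1 and 4 of each group summed to 1 library, 0 of the 9 passed, and 1 did at an unadjusted p under 0.05, Fzd8.

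Reads per gene cannot rank genes of different length, so levels were also taken per kilobase of exon, in normalized CPM. The Frizzled genes split into 5 with a level of at least 4.29 in every library (Fzd7, Fzd3, Fzd2, Fzd8 and Fzd1) and 4 with a level of at most 1.87 in any (Fzd5, Fzd9, Fzd4 and Fzd10). In shYthdf2 the means were 23.0 ± 5.27 for Fzd7, 18.8 ± 0.34 for Fzd3, 13.8 ± 3.81 for Fzd2, 7.78 ± 0.41 for Fzd1 and 4.50 ± 0.31 for Fzd8 (SD, n = 3). In shCtrl they were 17.7 ± 1.35 for Fzd3, 17.3 ± 7.53 for Fzd7, 10.8 ± 3.03 for Fzd2, 8.33 ± 1.88 for Fzd8 and 6.82 ± 2.13 for Fzd1. In shCtrl, neighbours in the order of these 5 overlapped between libraries, and Fzd3 and Fzd7, Fzd2 and Fzd8, and Fzd8 and Fzd1 each differed by less than the larger of their SDs. In shYthdf2, Fzd7 and Fzd3 differed by less than the SD of Fzd7, while Fzd1 was above Fzd8 in every library. Among the low genes the means ran from 1.76 (Fzd5) to 0.78 (Fzd4) in shYthdf2 and from 1.43 (Fzd9) to 0.85 (Fzd10) in shCtrl, and Fzd4 and Fzd10 overlapped in both groups. The mean level of Fzd7 over the 6 libraries was above that of 83.7% of the tested genes, that of Fzd3 above 81.9% and that of Fzd4 above 21.1%.

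The order of the 5 highest was Fzd7, Fzd3, Fzd2, Fzd1 and Fzd8 in all 3 shYthdf2 libraries and also in shCtrl replicate 2. In shCtrl replicates 1 and 4 it was Fzd3, Fzd7, Fzd8, Fzd2 and Fzd1. Added up, the Frizzled level was 67.4, 82.9 and 66.9 in shYthdf2 and 61.2, 76.9 and 58.3 in shCtrl, so replicate 2 was the highest library of each group and the groups overlapped. Fzd8 made up 6.46%, 5.86% and 6.42% of this level in shYthdf2 and 15.8%, 8.05% and 15.6% in shCtrl. Fzd1, Fzd2 and Fzd7 together made up 58.2%, 66.0% and 59.3% in shYthdf2 and 46.9%, 64.3% and 45.5% in shCtrl, where shCtrl replicate 2 lay within the range of shYthdf2. The share of Fzd3 was 22.9% to 28.2% in shYthdf2 and 21.0% to 32.0% in shCtrl, and was lowest in replicate 2 of each group.

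**Figure D4:**
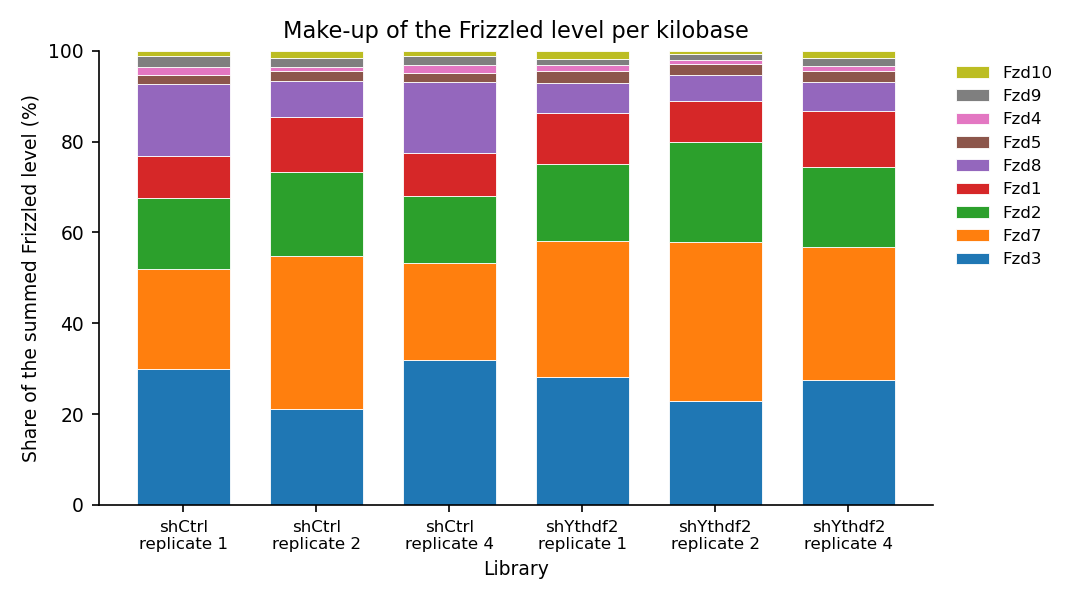
Share of each of 9 Frizzled genes in the summed Frizzled level (normalized CPM per kilobase of exon, in percent) in the 6 libraries. The share of Fzd8 (purple) is 5.86% to 6.46% in the shYthdf2 libraries and 8.05% to 15.8% in shCtrl, and shCtrl replicate 2 resembles the shYthdf2 libraries in the order of its 5 highest genes.

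The other genes of Wnt signalling were taken from lists of 9 roles, with 76 genes of which 54 were tested. Of these 54, 30 had a positive and 24 a negative log2 fold change, with a median of 0.14. An adjusted p under 0.05 was reached by 1, against 0.604% of all genes. At an unadjusted p under 0.05 there were 20 (37.0%, 12 higher and 8 lower), against 20.1% of all genes (9.50% higher and 10.6% lower). With the replicate block this was 28 (51.9%), against 31.6% of all genes. The groups did not overlap in 17 (31.5%, 11 higher and 6 lower), against 26.0% (12.6% higher and 13.4% lower). The gene past the adjusted threshold was Znrf3, a membrane ubiquitin ligase that takes Frizzled receptors off the cell surface. It had 932, 849 and 952 normalized counts in shYthdf2 and 461, 528 and 405 in shCtrl, with no overlap. Znrf3 rose by a log2 fold change of 0.97 (SE 0.13, edgeR adjusted p = 0.0447), and remained past the threshold with the replicate block (adjusted p = 0.0452). It lost the threshold when any library numbered 1 or 4 was left out (edgeR adjusted p 0.241 to 0.286) and with replicates 1 and 4 summed (0.921). Each of these fits called 0 of all genes. In limma-voom, which called 24 of all genes, it missed the threshold as well (adjusted p = 0.0528).

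Of the genes that work with ZNRF3 in receptor turnover, 6 of 9 were tested and 3 had an unadjusted p under 0.05, all higher in shYthdf2, against 9.50% of all genes in that direction. Beside Znrf3 these were Rspo2, a secreted protein that shields Frizzled from ZNRF3, with a log2 fold change of 0.66 (edgeR adjusted p = 0.246), and Lgr4, the receptor for R-spondins, with 0.31 (adjusted p = 0.139). Neither passed over all genes.

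Among the ligands, 10 of 19 Wnt genes were tested, 7 with a positive fold change. Wnt5a, the ligand for FZD3 in axons, had 313, 324 and 307 normalized counts in shYthdf2 and 149, 191 and 106 in shCtrl. The groups did not overlap, and the log2 fold change was 1.08 (SE 0.22, 95% interval 0.56 to 1.59), and its edgeR adjusted p of 0.0679 missed the threshold over all genes. It passed under 5 of 16 alternatives. Wnt4 (0.93, edgeR adjusted p = 0.193) was higher and Wnt9a (-0.64, adjusted p = 0.236) lower without overlap. Of the 4 tested genes of ligand release and Norrin, 4 had a positive fold change, and 1 of them, Porcn, had an unadjusted p under 0.05 with groups that overlapped.

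The co-receptors of β-catenin signalling had log2 fold changes of 0.29 (SE 0.22) for Lrp5 and 0.22 (SE 0.15) for Lrp6 and did not pass (edgeR adjusted p = 0.497 and 0.464). Both were higher in shYthdf2 within each replicate number, Lrp5 by 0.20, 0.26 and 0.40 and Lrp6 by 0.20, 0.30 and 0.18, and with the replicate block their adjusted p was 0.195 and 0.0939. Among the 8 co-receptors and other Wnt receptors, 3 had an unadjusted p under 0.05, all lower in shYthdf2, against 10.6% of all genes in that direction. Ptk7, a receptor of planar cell polarity, had 1073, 973 and 1043 normalized counts in shYthdf2 and 1576, 1129 and 1552 in shCtrl, with a log2 fold change of -0.46 (SE 0.14, edgeR adjusted p = 0.145). Ryk, a receptor of WNT5A in axons, had 783, 839 and 835 against 970, 1015 and 935, with -0.25 (SE 0.10, adjusted p = 0.207). The other was Ror1, whose groups overlapped, at -0.86. Smo, the Hedgehog signal transducer that is a distant relative of the Frizzled family, had 406, 485 and 417 against 625, 464 and 617, where shCtrl replicate 2 lay inside the shYthdf2 range (-0.38, edgeR adjusted p = 0.228).

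The 3 Dishevelled genes, whose proteins bind Frizzled inside the cell, all had negative log2 fold changes, from -0.63 to -0.27, as did 8463 of 17214 genes. The groups overlapped in Dvl2 (-0.27, edgeR adjusted p = 0.331) and in Dvl3 (-0.35, adjusted p = 0.258). Within number 2 Dvl3 was not lower (0.02). Dvl1, which opposes FZD3 signalling in axons, had 5006, 4650 and 5203 normalized counts in shYthdf2 and 8887, 5635 and 8547 in shCtrl. It was 64.4% of shCtrl without overlap, at -0.63 (SE 0.18, edgeR adjusted p = 0.119), and shCtrl replicate 2 was again the nearest to shYthdf2. Of the 11 tested planar polarity genes, 8 had a positive fold change and 5 an unadjusted p under 0.05, all higher without overlap, against 9.50% of all genes by that p and 12.6% by overlap in that direction. Prickle1, named because of its values, was the other gene without overlap, lower at -0.14 (edgeR adjusted p = 0.514). The 5 were Vangl2, the partner of FZD3 (0.25, edgeR adjusted p = 0.231), the cadherin Celsr1 (0.55, adjusted p = 0.0839), Prickle3 (0.58, adjusted p = 0.147), and Daam1 (0.31, adjusted p = 0.132) and Daam2 (0.86, adjusted p = 0.0615), which link Dishevelled to actin. None of the 5 passed over all genes.

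Of 5 tested secreted inhibitors, 4 had a negative fold change, and Sfrp1, which holds Wnt proteins away from Frizzled, had -0.40 without overlap (edgeR adjusted p = 0.115). Of 6 tested feedback targets of β-catenin, 3 were positive and 3 negative, with a median of 0.01. Axin2, a target of β-catenin in most tissues, had 1402, 1244 and 1521 normalized counts in shYthdf2 and 1126, 1169 and 1146 in shCtrl, at 0.28 (SE 0.10, edgeR adjusted p = 0.203), and Nkd2, whose groups overlapped, had -1.24.

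The calls of these genes turned on replicate 2 as those of the Frizzled genes did. Of the 19 Wnt pathway genes named by rule, 1 passed the adjusted threshold over all libraries. Most of the 19 were named by their p in these same libraries, so their counts in the refits say nothing of Wnt genes as a group. Without shCtrl replicate 2, 11 passed, where 18.3% of all genes did. These were Wnt5a, Ptk7, Znrf3, Rspo2, Lgr4, Sfrp1, Dvl1, Celsr1, Daam1, Daam2 and Smo. With the batch term for replicate 2, 14 passed (22.1% of all genes). On replicates 1 and 4 alone 17 did (52.7% of all genes), and with these summed 0 did (0% of all genes). Dvl1 had an edgeR adjusted p of 0.0025 without shCtrl replicate 2, of 1.55e-10 on replicates 1 and 4 and of 0.993 with these summed. Lrp6 passed with the batch term (adjusted p = 0.0299) and on replicates 1 and 4 (0.000641), but not without shCtrl replicate 2 (0.628).

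**Figure D5:**
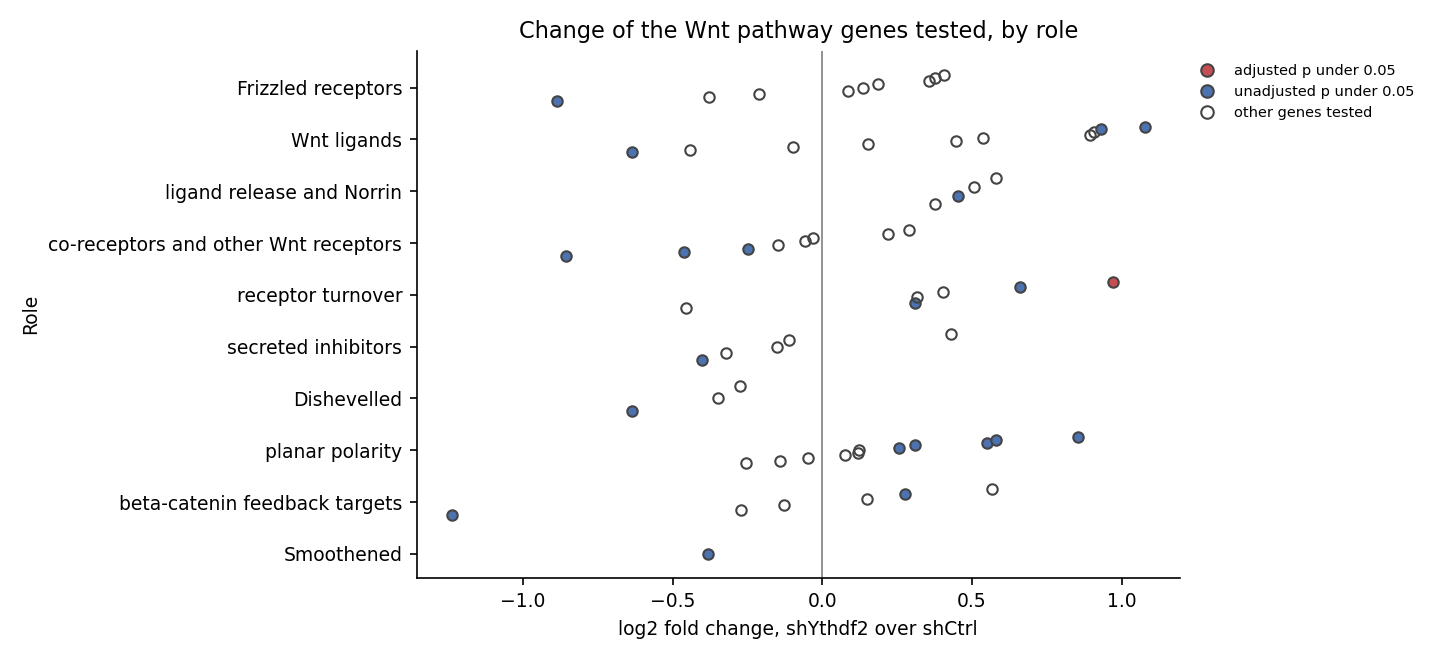
The log2 fold change, shYthdf2 over shCtrl, of the 9 Frizzled genes and the 54 other Wnt pathway genes tested, 1 point a gene, by role. The red point is Znrf3 (0.97), blue points have an unadjusted p under 0.05, and all 3 Dishevelled genes lie below 0, of which only Dvl1 is blue.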

How the data were processed

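RNA of cultured GCs was sequenced in 6 libraries, 3 for each hairpin. The authors deposited raw counts per gene, as whole numbers without normalization. The study's methods give mapping to GRCm38 with HISAT and TopHat2, counting with HTSeq and the NEBNext Ultra kit, whereas the submitters' processing notes name Bowtie 0.12.2 and mm9 and the labels the TruSeq kit. The gene IDs were matched by the GENCODE M21 annotation of GRCm38, which gave 52489 of 53421 rows a symbol, 785 being outside the annotation. Rows that name no gene numbered 0, and 0 sample columns were left out.

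The quasi-likelihood test of edgeR 4.0.16 (R 4.3.3) was applied to the counts, with TMM factors, filterByExpr (minimum count 10, minimum total 15) and Benjamini-Hochberg adjustment over 17214 genes, which held 99.8% of the counts. The threshold was 0.05. Values within a replicate number are log2 differences of normalized counts plus 0.5. Levels are normalized counts per kilobase of exon union, in CPM. The filter, DESeq2 1.42.0, limma-voom (limma 3.58.1), RLE and library-size scaling, a replicate block, a batch term for replicate 2 and each library left out were alternatives; the fit on replicates 1 and 4 and their sum were added after seeing the data. The depth limits precision for Fzd4, Fzd9 and Fzd10, with 34 to 154 counts a library. Tests were tried on simulated data, and plots were drawn with matplotlib 3.10.9 in Python 3.11.15.

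Libraries that share a number deviated together from their group means (r across genes 0.252, 0.360 and 0.321 for numbers 1, 2 and 4). The numbers were taken to pair the libraries, but the labels do not say what a number marks. Deviations cancel within a group, and replicate 2 lay far from the others in both groups. The values for numbers 1 and 4 can therefore follow from replicate 2 alone. The correlation between deviations of unlike numbers was not computed, so this check cannot show that 1 pairs with 1 and 4 with 4. The replicate block and the differences within a number assume that pairing.

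The members and lists were chosen with earlier results of these data known. Named genes were all Frizzled genes, Ythdf2, Wnt5a, Dvl1, Vangl2, Smo, Lrp5, Lrp6, and genes of the Wnt lists with an adjusted p under 0.05, or an unadjusted p under 0.05 and groups that do not overlap; others are named after their values were seen. Marker lists covered GCs, GC progenitors, astrocytes and Bergmann glia, oligodendrocyte lineage, microglia, vascular cells and fibroblasts, Purkinje cells, GABAergic interneurons, unipolar brush cells and ependymal cells.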

Additional observations from a re-analysis of the deposited data

How the results depend on the processing

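Over all genes, 104 passed the adjusted threshold; 1320 did in DESeq2, 24 in limma-voom, 639 without a filter, 232 with the replicate block and 3799 with a batch term for replicate 2, and leaving out single libraries gave 0 to 3239, the highest without shCtrl replicate 2 and 829 without shYthdf2 replicate 2. On replicates 1 and 4 alone 9186 passed, and 0 with these summed (937 at an unadjusted p under 0.05). Of the 9 Frizzled genes, 0 passed, against 1 in DESeq2, 1 without a filter, 3 with the batch term, 0 to 4 with single libraries left out (4 without shCtrl replicate 2) and 6 on replicates 1 and 4. Of the Wnt lists, 1 gene passed, against 7 in DESeq2, 0 in limma-voom, 3 without a filter, 21 with the batch term, 0 to 20 with single libraries left out (20 without shCtrl replicate 2, 3 without shYthdf2 replicate 2), 35 on replicates 1 and 4 and 0 with these summed. Ythdf2 (-0.57) passed in DESeq2 (-0.58), with the batch term (-0.56) and on replicates 1 and 4 (-0.32). The replicate block changed no call by adjusted p of a Frizzled gene, of a named Wnt gene or of Ythdf2, but at an unadjusted p under 0.05 it took the Frizzled genes from 1 to 4 and the Wnt lists from 20 to 28. Fzd10 (0.14) ran from -0.073 to 0.46 with single libraries left out, and turned to -0.07, -0.01 and -0.01 without shYthdf2 replicate 1, shCtrl replicate 1 and shCtrl replicate 4, and to -0.14 with replicates 1 and 4 summed. The cause of these shifts was not tested. The mean Fzd8 share of the Frizzled level was 6.25% in shYthdf2 and 13.2% in shCtrl, and 6.44% and 15.7% without replicate 2.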

Other observations

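The remaining marker lists, in summed CPM for shYthdf2 replicates 1, 2 and 4 and then shCtrl, had these values. Progenitor markers were at 99.3, 125 and 103, and then at 79.1, 111 and 74.8. Microglia markers were at 37.7, 15.1 and 39.3, and then at 7.6, 27.6 and 7.0. Purkinje cell markers were at 103, 108 and 101, and then at 73.2, 86.7 and 74.4. GABAergic interneuron markers were at 402, 486 and 400, and then at 340, 368 and 335. Ependymal markers were at 25.9, 23.5 and 29.7, and then at 23.8, 14.0 and 24.5. Purkinje cell and GABAergic interneuron sums were higher in every shYthdf2 library than in every shCtrl library, and the other 3 sums overlapped between the groups.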
